A study of Mus musculus with 23 samples.

Results

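A set of 6 mature miRNAs of the miR-199 and miR-214 families, known from hepatic stellate cells and fibroblasts, were followed in the liver of F3 male C57bl/6J mice. The members were taken by name and are mmu-miR-199a-5p, mmu-miR-199a-3p, mmu-miR-199b-5p, mmu-miR-199b-3p, mmu-miR-214-3p and mmu-miR-214-5p. They make up 6 of the 1218 mature miRNAs in the table of small RNA counts, and all 6 were among the 386 that passed the filter on low counts and were tested.

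The reference group (label STD_Cont, n = 8) came from the control lineage, bred on a growing diet with 1% of high-oleic sunflower oil, and was then fed a low-fat diet that took 10% of its energy from fat. The HFoleic group (HFD_Cont, n = 8) came from the same lineage and was fed a diet high in fat and sucrose that took 45% of its energy from fat. The HFepa group (HFD_O3, n = 7) came from the omega 3 lineage, bred with 1% of an EPA-rich fish oil, and was fed the same rich diet. All mice were of generation 3, spent 17 weeks on the test diet and were killed during a fasting period, and each library is the whole liver RNA of 1 mouse.

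A miRNA is cut from a hairpin precursor, whose 2 arms give the 5p and the 3p forms. The mature strand is loaded into an Argonaute protein and pairs with messenger RNAs mainly through its bases 2 to 8, the seed. Stellate cells lie beside the sinusoids, store vitamin A, and turn into collagen-producing myofibroblasts in liver injury. miR-199a and miR-214 are widely used as miRNAs of such mesenchymal cells and of liver fibrosis, whereas hepatocytes, which hold most of the RNA of the liver, are dominated by others such as miR-122. In bulk liver, fewer cells of a type and less RNA per cell cannot be told apart. Protein and mRNA markers of stellate cells were not analysed here, so the cell type in the name of the set could be checked only against other miRNAs.

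The sequences bear on which members can be counted apart. They are from RefSeq on GRCm38.p6, where 5 of the 6 members were found, with the seed in capitals.
mmu-miR-199a-5p: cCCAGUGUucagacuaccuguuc
mmu-miR-199a-3p: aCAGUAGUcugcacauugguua
mmu-miR-199b-3p: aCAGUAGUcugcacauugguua
mmu-miR-214-3p: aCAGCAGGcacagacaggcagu
mmu-miR-214-5p: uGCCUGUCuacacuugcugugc
The 5 sequences were 22 to 23 bases long and carried 4 different seeds. mmu-miR-199a-3p and mmu-miR-199b-3p have 1 and the same sequence, which lies at 3 loci, 2 of them named miR-199a and 1 named miR-199b. The only other mature mouse miRNA of the RefSeq table with a seed of these members was miR-761, which has the seed of miR-214-3p and whose level was not analysed here.

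The hairpins below show where each form comes from, with the mature forms of the RefSeq table in capitals.
Mir199a-2: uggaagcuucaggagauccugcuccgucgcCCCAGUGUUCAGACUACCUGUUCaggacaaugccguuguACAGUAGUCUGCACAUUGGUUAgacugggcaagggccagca
Mir199a-1: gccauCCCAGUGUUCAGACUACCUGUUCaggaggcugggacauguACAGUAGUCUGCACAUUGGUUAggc
Mir199b: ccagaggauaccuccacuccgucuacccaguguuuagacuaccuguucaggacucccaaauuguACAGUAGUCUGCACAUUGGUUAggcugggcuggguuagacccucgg
Mir214: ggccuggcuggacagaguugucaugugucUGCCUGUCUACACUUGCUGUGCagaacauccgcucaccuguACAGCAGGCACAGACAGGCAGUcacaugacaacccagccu
On GRCm38.p6, Mir199a-2 lies at chr1:162217814-162217923 and Mir214 at chr1:162223368-162223477, both on the plus strand and 5444 bases apart. The GENCODE annotation of GRCm38 places both inside an exon of Dnm3os, a noncoding RNA transcribed from the strand opposite to the dynamin 3 gene Dnm3. Mir199a-1 lies at chr9:21496495-21496564 on the minus strand, inside Dnm2 and opposite to it, and Mir199b at chr2:32318460-32318569 on the plus strand, inside Dnm1 and opposite to it. Neither overlapped an annotated exon of these dynamin genes. The Dnm3os transcript therefore holds miR-214 and 1 of the 2 miR-199a genes, but not Mir199b.

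Library totals were 5242218 to 8139344 counts in the reference group, 4340903 to 7220112 in HFoleic and 3725432 to 4947990 in HFepa. No pair of libraries of the same group had the same counts within sampling noise, and pairs across groups were not compared. The libraries carry numbers from 1 to 23 in the labels, with the reference group at 1 to 8, HFoleic at 9 to 15 and 23, and HFepa at 16 to 22. Several miRNAs outside the set changed level between library numbers 11 and 12, within the HFoleic group, so values are also given for numbers 1 to 11 and 12 to 23. No reference mouse has a number above 11 and no HFepa mouse one below 12, so for HFepa vs. reference the library number and the group cannot be told apart. The library labelled reference 3 stood apart from the other reference libraries, and each result that rests on it is given with and without it.

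Levels are CPM, counts scaled to the library total by TMM, which sets the libraries to a common scale. Since mature miRNAs are sequenced whole and the printed members have nearly the same length, their CPM values can be set beside each other, except for differences in how well each sequence is captured. Over the 23 libraries, the mean was 535 CPM for mmu-miR-199a-3p, 263 CPM for mmu-miR-199b-3p, 170 CPM for mmu-miR-199a-5p, 27.2 CPM for mmu-miR-214-3p, 6.36 CPM for mmu-miR-214-5p and 3.74 CPM for mmu-miR-199b-5p. The 3p arm was thus the more abundant form of miR-199a and of miR-214 in counts. For scale, miR-143-3p of the smooth muscle and fibroblast lineage had a mean of 25777 CPM and miR-122-5p of hepatocytes one of 18681 CPM.

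mmu-miR-199a-3p, the most abundant member, had a lowest, median and highest level of 392.4, 496 and 1738 CPM in the reference group, of 379, 481 and 509.95 CPM in HFoleic and of 419, 485 and 628 CPM in HFepa. The groups overlapped, their medians were close, and the highest value was that of reference library 3.

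mmu-miR-199b-3p followed it at a nearly fixed fraction. Its lowest, median and highest levels were 192, 243 and 861 CPM in the reference group, 187, 237 and 251 CPM in HFoleic and 206, 239.8 and 309.6 CPM in HFepa. In every one of the 23 libraries the count of miR-199a-3p was between 2.02 and 2.04 times that of miR-199b-3p, beside 2 loci of the shared sequence named miR-199a and 1 named miR-199b. The spread of this ratio was below that of independent counting, with a chi-square of 0.0134 per degree of freedom where independent reads would give about 1. The counts therefore do not hold separate measurements of the 2 forms, and they are read here as 1 quantity. Added together they came to 953 ± 672 CPM for the reference group (SD, n = 8), 704 ± 64.4 CPM for HFoleic (SD, n = 8) and 729 ± 106 CPM for HFepa (SD, n = 7). Without reference library 3, the reference group had 718 ± 103 CPM (SD, n = 7).

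mmu-miR-199a-5p, the other arm of the miR-199a hairpins, had a lowest, median and highest level of 116, 139.7 and 411 CPM in the reference group, of 111, 172 and 207 CPM in HFoleic and of 143.1, 170.2 and 208 CPM in HFepa. Here 7 of the 8 reference libraries lay in the lower part of the range of the other groups, and library 3 lay above every other library.

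mmu-miR-199b-5p is named for the Mir199b gene alone, and it was scarce. It had a lowest, median and highest level of 1.15, 2.63 and 23.3 CPM in the reference group, of 1.59, 2.70 and 3.65 CPM in HFoleic and of 1.65, 3.13 and 6.19 CPM in HFepa. Its counts ran from 6 to 161 in the reference group, from 11 to 20 in HFoleic and from 7 to 26 in HFepa. Counting error alone thus gives a CV of 26.0% at the HFoleic mean count, close to the observed CV of 26.9%. Differences in miR-199b-5p between mice of that group were not detectable at this depth. The printed Mir199b hairpin holds, in lower case, a stretch nearly identical to the far more abundant miR-199a-5p. The authors' alignment tolerated some mismatched bases. Whether mismatched reads of miR-199a-5p entered the counts of miR-199b-5p was not tested, so these may not be a separate measurement.

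The miR-214 pair, from the hairpin that shares Dnm3os with Mir199a-2, was lower than miR-199a throughout. The lowest, median and highest levels of mmu-miR-214-3p were 16.2, 24.9 and 102 CPM in the reference group, 14.3, 24.9 and 31.9 CPM in HFoleic and 17.1, 26.3 and 28.6 CPM in HFepa. Those of mmu-miR-214-5p were 4.20, 6.31 and 19.4 CPM in the reference group, 3.75, 6.03 and 8.29 CPM in HFoleic and 1.77, 5.52 and 8.33 CPM in HFepa. For both arms the groups overlapped and reference library 3 was the highest of all 23 libraries.

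**Figure D1:**
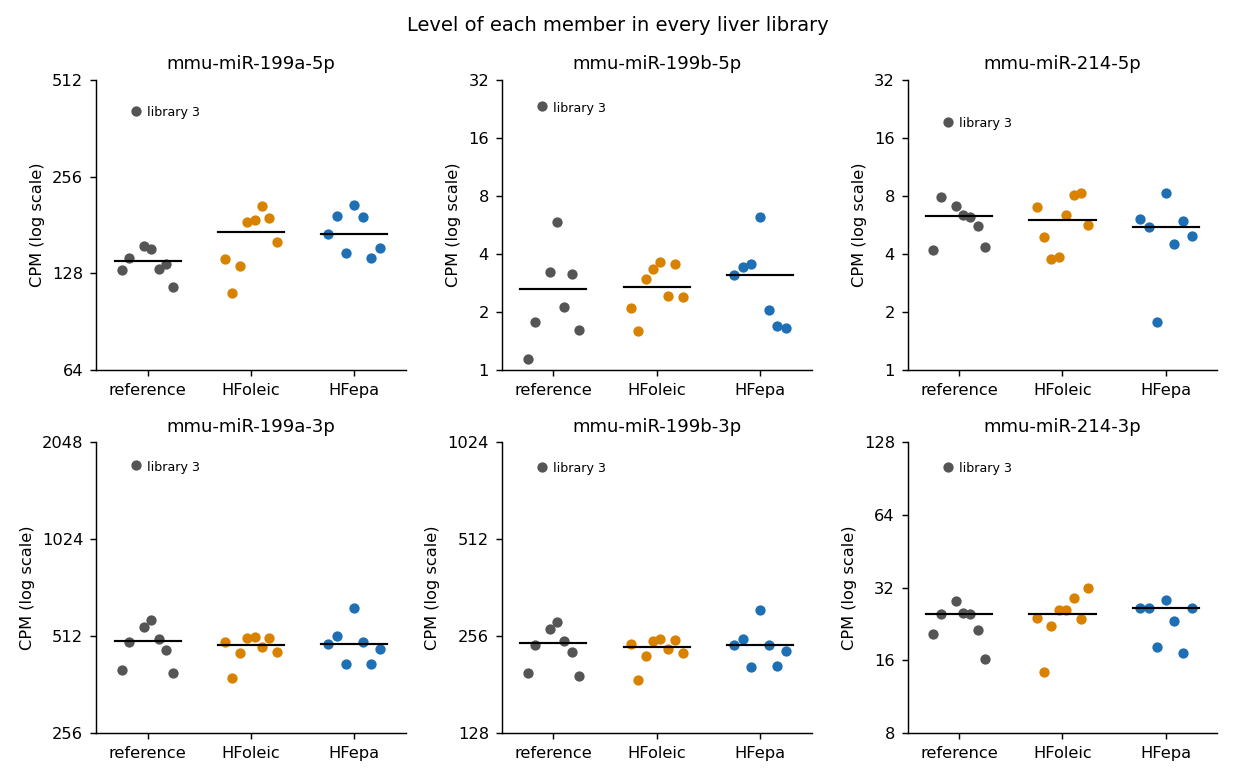
Level of each member in every library, in CPM on a log scale, by group (8 reference, 8 HFoleic and 7 HFepa libraries). Points are libraries in order of library number and bars are group medians. Reference library 3 was the highest library for all 6 members, and the remaining points of the 3 groups overlapped.

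All 6 members were raised together in reference library 3. Against the median of the other 7 reference libraries, miR-199b-5p was 10.95 times higher in it, miR-214-3p 4.10 times, miR-199b-3p 3.59 times, miR-199a-3p 3.55 times, miR-214-5p 3.11 times and miR-199a-5p 3.00 times. Of all 386 tested miRNAs, 62 (16.1%) were more than 2 times higher in that library, and the median over all of them was 1.06. Marker lists were read in it as the sum of their CPM. The biliary epithelial list of the miR-200 family was 6.26 times the median of the other reference libraries, with all 5 of its miRNAs more than 3 times higher. The leukocyte list stood at 1.65 times, and both lists lay above every other reference library. The hepatocyte list stood at 0.587 times, the red blood cell list at 0.61 times and the endothelial list at 0.736 times, all below every other reference library. The vascular wall and fibroblast list, at 1.62 times, and the fibrosis-related list, at 1.01 times, lay inside the range of the other reference libraries (24672 to 53986 CPM and 60582 to 78767 CPM). For the first list, 1 other reference library held 20244 CPM of miR-10b-5p. In library 3 its miRNAs miR-143-3p (39909 CPM against at most 32221 CPM), miR-143-5p, miR-145a-5p, miR-145a-3p, miR-100-5p and miR-125b-5p lay above every other reference library. Its miR-10b-5p and miR-99a-5p did not. The sum of the fibrosis-related list in library 3, 75042 CPM, was mostly miR-21a-5p, at 57075 CPM, and says little about its other miRNAs. Within that list, miR-34a-5p, a target of p53, was 6.03 times higher and miR-29c-3p, which represses collagen transcripts, was at 0.447 times. Hepatocyte miRNAs ranged from 187956 CPM in library 3 to 357694 CPM summed over the list, and remained the largest list in every group. The part of these lists in the level of the members was not tested.

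**Figure D2:**
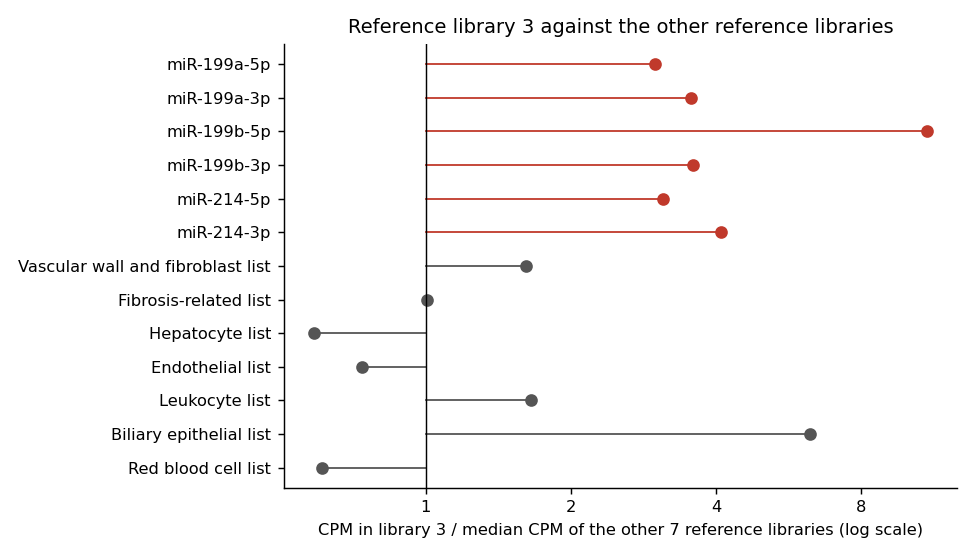
Level of the 6 members (red) and of the summed marker lists (grey) in reference library 3, divided by the median of the other 7 reference libraries, on a log scale. The members lay between 3.00 and 10.95 and the biliary epithelial list at 6.26, whereas the hepatocyte list lay at 0.587.

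The comparison HFoleic vs. reference asks what the high-fat, high-sucrose diet does within the control lineage. Calls were made by the quasi-likelihood test of edgeR, with Benjamini-Hochberg adjustment over all 386 tested miRNAs, where the adjusted p was under 0.05 and the log2 fold change was beyond 0.25 in either direction. None of the 6 members was called. By this rule 48 of the 386 miRNAs (12.4%) passed. At an unadjusted p under 0.05 there were 110 (28.5%) of all tested and 0 of the 6 members. No tested miRNA had groups that did not overlap (0%). The median log2 fold change of the members was -0.43, beside -0.0024 over all tested miRNAs. The lowest was that of miR-199b-5p at -0.95 ± 0.50 (SE, 95% interval -1.98 to 0.077, edgeR adjusted p = 0.212), and the highest that of miR-199a-5p at -0.064 ± 0.21 (SE, -0.498 to 0.371, edgeR adjusted p = 0.884). miR-199a-3p had a log2 fold change of -0.44 ± 0.23 (SE, edgeR adjusted p = 0.218) and miR-214-3p one of -0.42 ± 0.29 (SE, edgeR adjusted p = 0.349).

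These negative values rested on library 3. Without it, the log2 fold change was -0.028 for miR-199a-3p (95% interval -0.228 to 0.173), 0.096 for miR-214-3p (-0.214 to 0.405), 0.0019 for miR-214-5p (-0.484 to 0.487) and 0.0041 for miR-199b-5p (-0.668 to 0.677). For miR-199a-3p the whole interval lay within 0.25 of 0 in this fit, against -0.916 to 0.0414 with library 3. Library 3 was singled out by its high levels of these same members. Leaving it out therefore had to narrow the interval, which is no test that the groups are equal. With a term for the library number as well, the value for miR-199a-3p was -0.114 (-0.381 to 0.154). For miR-199a-5p the value became 0.26 ± 0.12 (SE, 0.0115 to 0.50, edgeR adjusted p = 0.168), which was again not called. With a term for the library number in that fit as well, it was -0.083 (-0.334 to 0.169).

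HFepa vs. reference differs in the lineage oil as well as in the test diet. Again 0 of the 6 members were called, beside 61 of 386 (15.8%) of all tested miRNAs, and 0 had an unadjusted p under 0.05, beside 110 (28.5%). No member had groups that did not overlap, beside 18 of 386 (4.66%). The median log2 fold change of the members was -0.43, beside -0.057 over all tested. miR-199b-5p had the lowest value, -0.78 ± 0.52 (SE, edgeR adjusted p = 0.349), followed by miR-214-5p at -0.53 ± 0.31 (SE, edgeR adjusted p = 0.284), miR-214-3p at -0.47 ± 0.30 and miR-199a-3p at -0.39 ± 0.24. miR-199a-5p stood at 0.0031 ± 0.22 (SE, edgeR adjusted p = 0.997). Without reference library 3 the values were 0.023 for miR-199a-3p (95% interval -0.185 to 0.23), 0.048 for miR-214-3p, -0.17 for miR-214-5p and 0.17 for miR-199b-5p. That of miR-199a-5p was then 0.32 ± 0.12 (SE, 0.0719 to 0.576, edgeR adjusted p = 0.0727), and not called. Where the fit also held a term for the library number (12 to 23 against 1 to 11), it was -0.19 (-0.515 to 0.144).

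The comparison of both lineages on the same diet, HFepa vs. HFoleic, does not involve library 3 other than through the shared estimate of the spread. None of the 6 members was called and 0 of all 386 tested miRNAs were (0%), with 22 (5.7%) at an unadjusted p under 0.05, none of them a member. Groups that did not overlap were seen for 0 of 386. The members' log2 fold changes ran from -0.17 for miR-214-5p to 0.17 for miR-199b-5p with a median of 0.05, beside -0.023 over all tested. miR-199a-3p stood at 0.05 ± 0.24 (SE, 95% interval -0.444 to 0.545), and at 0.05 with an interval from -0.15 to 0.251 where library 3 was left out. Both reference comparisons use the same 8 reference libraries, so their like values for the members are not separate observations.

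**Figure D3:**
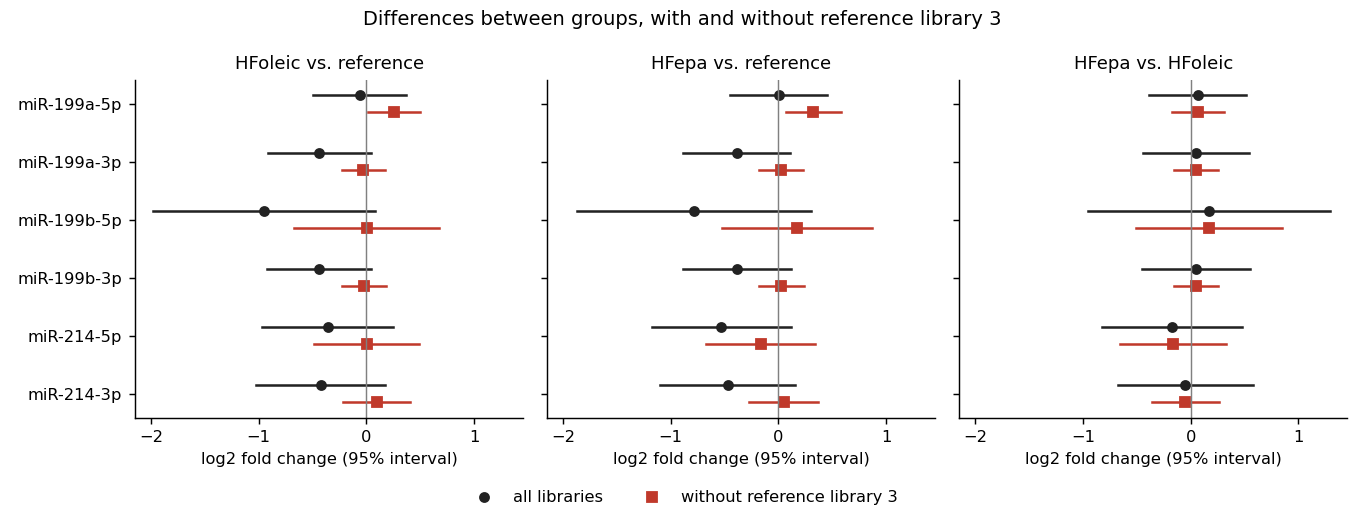
Log2 fold change of each member with its 95% interval in the 3 comparisons, from edgeR's quasi-likelihood fit of all 23 libraries (black circles) and of the 22 libraries without reference library 3 (red squares). In both comparisons with the reference group, leaving out library 3 moved all 6 values upward and narrowed the intervals. The values of HFepa vs. HFoleic stayed within 0.01 of each other.

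Ratios of 2 miRNAs of the same library do not depend on the scaling between libraries. A set of 7 ratios was compared in each of the 3 comparisons by an exact two-sided permutation test, with Benjamini-Hochberg adjustment over these 21 tests. The arm ratio, the count of miR-199a-5p divided by that of miR-199a-3p, had a lowest, median and highest value of 0.236, 0.287 and 0.327 in the reference group. These were 0.29, 0.358 and 0.439 in HFoleic and 0.329, 0.351 and 0.391 in HFepa. The 3p count belongs to a sequence that also lies in Mir199b, so this ratio is not confined to the miR-199a hairpins. The reference group lay below HFepa with no overlap, but only just, with 0.327 and 0.329 as the nearest values. On the log2 scale the ratio was higher in HFepa than in the reference group by 0.33 (exact permutation p = 0.000311, adjusted p = 0.00653, n = 7 and 8). It was higher in HFoleic than in the reference group by 0.29, which missed the threshold (exact permutation p = 0.00699, adjusted p = 0.0642, n = 8 and 8). Without HFoleic library 9 or 10, this passed (adjusted exact permutation p = 0.0408 and 0.049). It also passed without HFepa library 22 (adjusted exact permutation p = 0.049). That library is not in this comparison and changes only the adjustment over the 21 tests. Between HFepa and HFoleic the difference was 0.037 (exact permutation p = 0.679, adjusted p = 0.898, n = 7 and 8).

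The arm ratio moved with the library number within HFoleic. HFoleic libraries 9, 10 and 11 had ratios of 0.29, 0.293 and 0.297, inside the reference range, whereas HFoleic libraries 12 to 15 and 23 had 0.351 to 0.439, inside or above the HFepa range. Over all groups, the libraries numbered 1 to 11 lay between 0.236 and 0.327 and those numbered 12 to 23 between 0.329 and 0.439. Within numbers 1 to 11 the ratio differed between HFoleic and the reference group by 0.060 on the log2 scale (exact permutation p = 0.545, adjusted p = 0.8, n = 3 and 8, smallest possible p 0.00606). Within numbers 12 to 23 it differed between HFepa and HFoleic by -0.10 (exact permutation p = 0.134, adjusted p = 0.937, n = 7 and 5). The levels behind the ratio can be set side by side. Without library 3, miR-199a-5p ran from 111 to 155 CPM in numbers 1 to 11 and from 143.1 to 208 CPM in numbers 12 to 23, while miR-199a-3p ran from 379 to 575 CPM and from 419 to 628 CPM. For HFepa vs. reference, where the ratio passed the test, group and library number cannot be told apart.

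**Figure D4:**
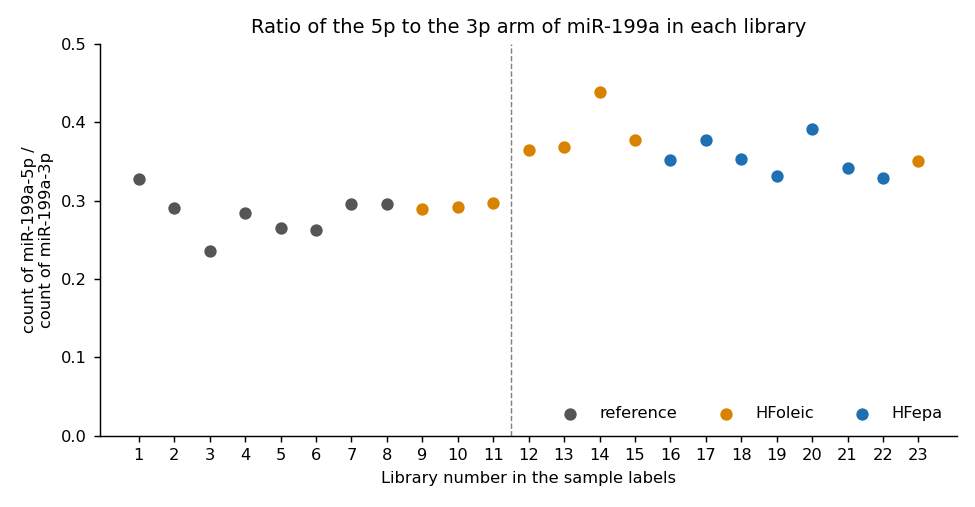
Count of miR-199a-5p divided by the count of miR-199a-3p in each of the 23 libraries, by library number and coloured by group. The dashed line separates numbers 1 to 11, which lay between 0.236 and 0.327, from numbers 12 to 23, which lay between 0.329 and 0.439. The HFoleic libraries fell on both sides of it.

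The ratio of miR-199a-5p to miR-214-3p, 2 miRNAs with a hairpin in Dnm3os, of which the first also comes from Mir199a-1, had a median of 5.90 among reference mice, 7.13 among HFoleic and 7.37 among HFepa mice. The difference between HFepa and the reference group was 0.34 on the log2 scale (exact permutation p = 0.00917, adjusted p = 0.0642, n = 7 and 8), which passed without reference library 8 (adjusted exact permutation p = 0.0428) or HFepa library 22 (adjusted exact permutation p = 0.028). The arms of miR-214 did not pass, with a median ratio of 5p to 3p of 0.253, 0.264 and 0.21 in the same order, and an adjusted exact permutation p of 0.898 in each comparison. The ratio of miR-199a-5p to miR-199b-5p had medians of 54.9, 61.1 and 56.7 in the same order. The spread of this ratio in the reference group was wide, from 17.6 in library 3 to 114.5. Whether mismatched reads of miR-199a-5p entered the miR-199b-5p counts in this ratio was not tested. Against markers of other cells, miR-199a-3p was at 0.019 times miR-143-3p in the reference group by the median, at 0.020 in HFoleic and at 0.019 in HFepa. Against the endothelial miR-126a-3p its medians were 0.20, 0.193 and 0.167, and against the hepatocyte miR-122-5p they were 0.0253, 0.0244 and 0.0241. For these 3 ratios the adjusted exact permutation p was 0.898 in all 9 tests, while library 3 alone reached 0.0436, 0.811 and 0.161.

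Over all 23 libraries, members varied together once the group mean was removed. The log2 CPM of each library less its group mean was compared for the 15 pairs, with a permutation test of 100000 resamples and adjustment over the pairs. The pair of miR-199a-3p and miR-199b-3p, at r = 0.9999, is 1 quantity counted in 2 rows. miR-199a-5p and miR-199a-3p, of which the second shares its sequence with Mir199b, had a Pearson r of 0.928 (adjusted permutation p = 1.87e-05) and a Spearman rho of 0.875 (adjusted permutation p = 3.75e-05, both from the smallest p that the resamples can give). For miR-199a-3p and miR-214-3p, r was 0.937 (adjusted permutation p = 1.87e-05) and rho 0.748 (adjusted permutation p = 0.000206). For miR-214-3p and miR-214-5p, r was 0.724 (adjusted permutation p = 0.000461) and rho 0.598 (adjusted permutation p = 0.00397). All 15 pairs passed by r and 14 by rho. With miR-199b-3p left out, 10 of 10 pairs passed by r and 9 by rho.

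Library 3 contributed to these values, and most pairs still passed without it. Removing the group mean leaves the step between library numbers 11 and 12 within HFoleic. There miR-199a-5p ran from 111 to 142 CPM in numbers 9 to 11 and from 161 to 207 CPM in numbers 12 to 15 and 23. The part of this step in r was not tested, and numbers 1 to 11 were not compared without library 3. Without the 2 libraries farthest from the median of the first member, r was 0.796 for miR-199a-5p and miR-199a-3p, 0.759 for miR-199a-3p and miR-214-3p and 0.482 for the arms of miR-214. The lowest r of any pair then belonged to the scarce forms miR-199b-5p and miR-214-5p, at 0.141, where it no longer passed (adjusted permutation p = 0.544). Without library 3 alone, 14 of 15 pairs passed by r, and 9 of 10 with miR-199b-3p left out. Within numbers 1 to 11, which hold library 3, r was 0.991 for the arms of miR-199a and 0.984 for miR-199a-3p and miR-214-3p. Within numbers 12 to 23 the same pairs had r = 0.821 (adjusted permutation p = 0.00155, 12 libraries) and r = 0.593 (adjusted permutation p = 0.0855, 12 libraries). There 5 of 15 pairs passed by r and 3 by rho, all of them within miR-199. With miR-199b-3p left out, as the second row of 1 quantity, 2 of 10 passed by r and 1 by rho. The relation between miR-199 and miR-214 was therefore not shown within numbers 12 to 23.

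**Figure D5:**
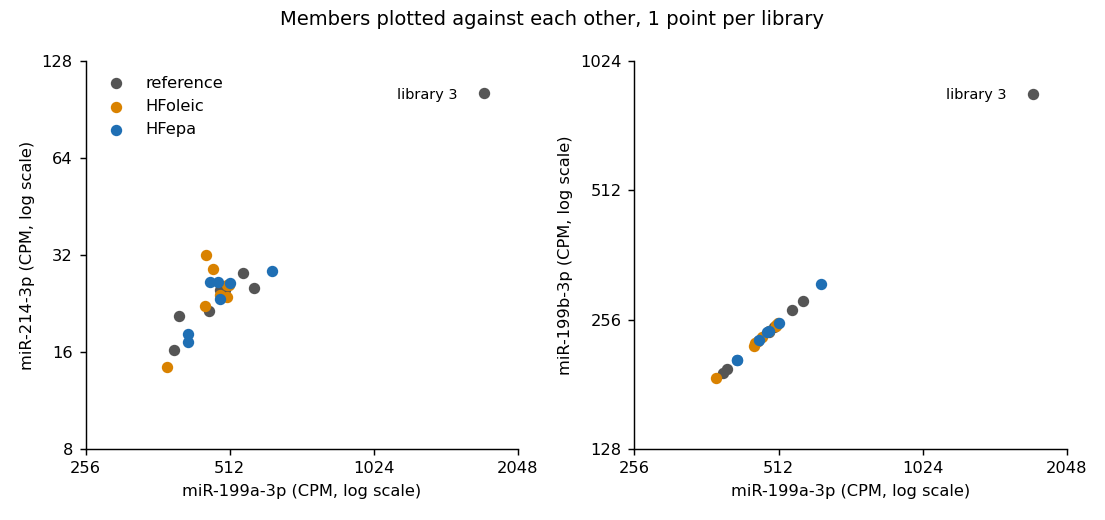
miR-214-3p (left) and miR-199b-3p (right) against miR-199a-3p, in CPM on log scales, 1 point per library and coloured by group. In the right panel the points fall on a line, as the ratio of both counts, which belong to 1 sequence, lay between 2.02 and 2.04 in every library. In the left panel library 3 lies far above the remaining 22 libraries.

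The miRNAs most like the members were sought among 255 others with a mean of at least 10 CPM, by Pearson r of log2 CPM less the group mean over 23 libraries, as a description. miR-181c-5p came first for all 3 members compared, with r = 0.897 for miR-199a-5p, 0.951 for miR-199a-3p and 0.894 for miR-214-3p. For miR-199a-5p it was followed by miR-200b-3p (0.887), miR-27a-3p (0.879), miR-195a-5p (0.873) and miR-34a-5p (0.859). For miR-199a-3p the next were miR-195a-5p (0.924), miR-181c-3p (0.908), miR-181a-5p (0.905) and miR-497a-5p (0.903), and for miR-214-3p they were miR-23a-3p (0.857), miR-200b-3p (0.857), miR-27a-3p (0.846) and miR-195a-5p (0.843). Both miR-200b-3p and miR-34a-5p are among those raised in library 3. Over the 22 libraries without it, miR-181c-5p remained first for miR-199a-3p (r = 0.824) and second for miR-214-3p after miR-23a-3p (0.638 and 0.685), whereas miR-183-5p (0.729) and miR-145a-3p (0.69) led for miR-199a-5p. For miR-199a-3p, r with miR-214-3p was 0.937 over 23 libraries, below the 0.951 with miR-181c-5p. Without library 3 its r was 0.771 with miR-214-3p and 0.766 with miR-199a-5p, below the 0.824 with miR-181c-5p. Varying together was thus not particular to the members.

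Other miRNAs of mesenchymal cells were read by their lists. Over all 386 tested miRNAs, 48 (12.4%) were called in HFoleic vs. reference and 61 (15.8%) in HFepa vs. reference. Of 8 in the vascular wall and fibroblast list, 3 were called higher in HFoleic than in the reference group and none lower, with a list median log2 fold change of 0.28. They were miR-100-5p at 2.03 ± 0.44, miR-99a-5p at 0.99 ± 0.21 and miR-125b-5p at 0.87 ± 0.24 (SE, edgeR adjusted p = 0.0107, 0.0107 and 0.0249), all from the clustered miR-99/100 and miR-125 genes. In HFepa vs. reference 4 were called higher, miR-145a-3p at 0.61 ± 0.20 (SE, edgeR adjusted p = 0.0396) beside the same 3, and miR-10b-5p was called lower at -2.36 ± 0.83 (SE, edgeR adjusted p = 0.04998). Without library 3 the value for miR-10b-5p was -2.49 ± 0.87 (SE, edgeR adjusted p = 0.0511), a fold change about as large with a p just above the threshold, and 1 other reference library held 20244 CPM of it. miR-100-5p lay between 172.5 and 282 CPM in all libraries numbered 1 to 11, HFoleic included, and between 309 and 1856 CPM in those numbered 12 to 23. With a term for the library number, 0 of these list calls remained, and 1 of all 386 miRNAs was called in HFoleic vs. reference and 0 in HFepa vs. reference. The list median was then -0.24 and -0.45. Only HFoleic has libraries on both sides of this term, and the term widens the errors. For miR-199a-3p in HFepa vs. reference the SE was 0.24 without it and 0.42 with it. The loss of a call therefore does not show that a difference was absent. Both arms of miR-143 and miR-145a-5p, miRNAs of smooth muscle and pericytes, were not called in any comparison.

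Of 15 miRNAs in the fibrosis-related list, 1 was called in HFoleic vs. reference and 2 in HFepa vs. reference, all lower. Over all 386 tested miRNAs, 12.4% and 15.8% were called in these comparisons. miR-150-5p, a lymphocyte miRNA, was lower in both, with 322 ± 102 CPM for the reference group (SD, n = 8), 167 ± 75.4 CPM for HFoleic (SD, n = 8) and 122.1 ± 23.6 CPM for HFepa (SD, n = 7). miR-222-3p was lower in HFepa, with 88.8 ± 7.58 CPM (SD, n = 7) against 135 ± 13.9 CPM (SD, n = 8). Neither the miR-21a nor the miR-29 forms, which are known to rise and to fall in fibrotic liver, were called. Without library 3, miR-34a-5p was also called higher in HFoleic and miR-335-5p was also called higher in HFepa, and miR-141-3p of biliary epithelium was called higher in HFoleic. In the lists of other cells, miR-126a-5p of endothelium was called higher in HFepa vs. reference at a log2 fold change of 0.25 ± 0.084, and stood at 0.20 ± 0.068 without library 3 (SE, edgeR adjusted p = 0.0416 and 0.0481), under the fold change threshold. miR-429-3p of biliary epithelium was called lower at -1.22 ± 0.38, and stood at -0.48 ± 0.18 without library 3 (SE, edgeR adjusted p = 0.034 and 0.075). No hepatocyte or red blood cell miRNA was called. miR-133a-3p of muscle and miR-375-3p of pancreas were called lower in both comparisons with the reference group, where 1 reference library each held 205 and 2020 CPM against group medians of 5.62 and 16.8 CPM. No miRNA of any list was called in HFepa vs. HFoleic. With a term for the library number, no miRNA of any list was called in any comparison. In HFoleic vs. reference that fit still gave -2.77 for miR-133a-3p and -3.33 for miR-375-3p, beside -2.64 and -3.87 without the term. The absence of calls in it therefore does not show an absence of differences.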

How the data were processed

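Liver small RNA of 23 mice was sequenced, 1 library per mouse, from TruSeq Small RNA libraries. The authors trimmed adapters with the FASTX-Toolkit, aligned reads with Bowtie v0.12.8 in the ncPRO-seq pipeline and annotated them against miRBase 22.1, and they deposited counts per mature miRNA without normalization. Their methods name the genome as GRCm38.p6 and as mm9, and the submitters' processing notes name mm10 and bcl2fastq 2.17.1.14. How reads of identical mature sequences were divided is not given in the sources used here. The signal values that the authors deposited are the counts divided by 1 size factor per library, and were not used. Their log2 fold changes and p-values were not used either.

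Groups were taken from the sample titles and labels. The 386 miRNAs that passed filterByExpr were fitted with edgeR 4.0.16 (R 4.3.3) in 1 model of 3 groups with TMM factors. Intervals cover 95%. Ratios had 0.5 added to each count for the tests, and log2 CPM used a prior count of 2. Ratios and correlations were tested in Python 3.11.15 with scipy 1.17.1 (random seed 20200412). The tests were checked on simulated data. Library totals were 3725432 to 8139344 counts. At the mean count of a group, counting error gives a CV of about 1.54% for miR-199a-3p in the reference group and up to 27.7% for miR-199b-5p. Reads have no molecular identifiers, so this covers counting error only. Whether mice shared a litter is not given, and p-values measure the spread between these mice.

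The members and the marker lists were chosen with earlier results of these data known. Named miRNAs are the members, the 5 most like each of 3 members with a mean of at least 10 CPM, the called miRNAs of the marker lists, and miRNAs that share a seed with a member. Other miRNAs named in the text were chosen after their values were seen. Alternatives were DESeq2 1.42.0, limma 3.58.1 with quantile normalization or voom quality weights, other scalings and filters, only the groups compared, other thresholds, a term for the library number, each part of the library numbers alone, thinning to 3725432 counts, and each library left out.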

Additional observations from a re-analysis of the deposited data

Results flagged for a closer look

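Each member and ratio was examined in each group for a library whose distance to its nearest neighbour took up an unusual share of the range of the group. The sets share libraries, and miR-199a-3p and miR-199b-3p are 1 quantity, so the sets are not independent and their tally is a description. Such a library was seen in 9 of 18 sets of levels and 3 of 24 sets of ratios, where chance gives about 1 in 20 for a set taken alone. Reference library 3 was the high one in 9 of these 12, with 411 CPM of miR-199a-5p, 1738 CPM of miR-199a-3p, 23.3 CPM of miR-199b-5p, 861 CPM of miR-199b-3p, 102 CPM of miR-214-3p and 19.4 CPM of miR-214-5p. The same library stood apart in the log2 ratio of miR-199a-3p to miR-143-3p (-4.52), to miR-126a-3p (-0.30) and to miR-122-5p (-2.64). In HFoleic, library 10 was low in miR-199a-3p, with 379 CPM, and in miR-199b-3p, with 187 CPM. In HFepa, library 19 was high in miR-199b-5p, with 6.19 CPM.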

How the results depend on the processing

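No member was called in the 45 pairs of a comparison and an alternative fit that were run, or without any single library. These cover 14 alternatives, and 3 more that were added after seeing the data. Numbers 1 to 11 alone hold no HFepa library and numbers 12 to 23 alone no reference library, so 1 comparison was fitted in each. With both 3p counts added together, 5 entries were tested in place of 6. With at least 10 counts required in every library, miR-199b-5p and miR-214-5p were not tested. Depth limits these 2 members most. Directions were less stable, since most log2 fold changes lay near 0, and the cause of each sign change was not tested beyond what is named here.

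In HFoleic vs. reference, the sign turned for miR-199a-5p with upper-quartile factors (0.051), quantile normalization (0.10) and limma-voom quality weights (0.22), and for miR-199b-5p with DESeq2 (0.0029). The quality weights also turned miR-199a-3p (0.0072), miR-199b-3p (0.00895), miR-199b-5p (0.28) and miR-214-3p (0.053). In HFepa vs. reference it turned for miR-199b-5p with DESeq2 (0.19) and the quality weights (0.20). It turned for miR-199a-5p with library size in place of TMM (-0.11), no filter (-0.011), a minimum of 10 counts per library (-0.018) and the library-number term (-0.53, and -0.19 without library 3). In HFepa vs. HFoleic it turned for miR-214-3p with quantile normalization (0.0056), and for miR-199a-3p, miR-199b-5p and miR-199b-3p with the quality weights (-0.015, -0.083 and -0.015). There the library-number term turned miR-199a-5p (-0.11, and -0.10 without library 3), miR-199a-3p (-0.0052) and miR-199b-3p (-0.0061), and numbers 12 to 23 alone gave miR-199a-5p -0.10.

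Leaving out 1 library at a time, log2 fold changes in HFoleic vs. reference ranged from -0.13 to 0.26 for miR-199a-5p, from -1.12 to 0.0041 for miR-199b-5p, from -0.51 to 0.096 for miR-214-3p and from -0.46 to 0.0019 for miR-214-5p, each highest without library 3. In HFepa vs. reference the ranges were -0.043 to 0.32 for miR-199a-5p, -0.45 to 0.023 for miR-199a-3p, -1.04 to 0.17 for miR-199b-5p, -0.45 to 0.026 for miR-199b-3p and -0.53 to 0.048 for miR-214-3p, again highest without library 3. In HFepa vs. HFoleic they were -0.0047 to 0.14 for miR-199a-5p, -0.0093 to 0.12 for miR-199a-3p, -0.084 to 0.31 for miR-199b-5p, -0.010 to 0.12 for miR-199b-3p and -0.14 to 0.048 for miR-214-3p.

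Of the log2 ratios, differences of medians turned miR-199a-5p to miR-199a-3p (-0.027) and miR-199a-3p to miR-122-5p (-0.017) in HFepa vs. HFoleic, miR-214-5p to miR-214-3p (0.063) and miR-199a-3p to miR-143-3p (0.072) in HFoleic vs. reference, and the last also in HFepa vs. reference (0.00062). No pseudocount turned miR-199a-5p to miR-199b-5p in HFepa vs. HFoleic (0.0078). Numbers 1 to 11 alone turned miR-214-5p to miR-214-3p (0.059), and numbers 12 to 23 alone miR-199a-5p to miR-199a-3p (-0.10) and miR-199a-3p to miR-122-5p (-0.014). Without 1 library, the differences ranged from -0.11 to 0.057 for miR-214-5p to miR-214-3p in HFoleic vs. reference. For miR-199a-3p to miR-143-3p they ranged from -0.15 to 0.047, from -0.18 to 0.030 and from -0.079 to 0.019 in the 3 comparisons, and for miR-199a-3p to miR-122-5p from -0.38 to 0.066, from -0.36 to 0.11 and from -0.086 to 0.11. For miR-199a-5p to miR-199b-5p in HFepa vs. HFoleic the range was -0.11 to 0.13. The call of miR-199a-5p to miR-199a-3p in HFepa vs. reference kept its side of the threshold without any single library, with differences from 0.29 to 0.36. No paired analysis was possible because the labels give no number or animal that pairs mice across groups.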
